A study of Homo sapiens with 14 samples.

Results

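Clone 1, a PC3 prostate cancer line with very little transcript of the platelet-derived growth factor receptor alpha (PDGFRA), was compared with PC3-N(PDGFRα), a PC3 line made to overexpress that receptor. The labels call both lines bone metastatic. The pair was chosen by the measured PDGFRA intensity, the highest and the lowest among 5 PC3 lines, and holds 4 of the 14 arrays of the series, 2 per line. Clone 1 stands for PC3-ML (Clone 1), the progeny of a single PC3-ML cell, and is therefore 1 clone. PC3-N(PDGFRα) is PC3-N with added PDGFRα, and no PC3-N line carrying a vector alone was analysed here. PC3-ML, also labelled bone metastatic, and PC3-N, labelled not bone metastatic, served as the parents, with 2 arrays each. Culture was alike for all lines: DMEM medium, supplemented with bovine serum and the antibiotic gentamicin. The arrays of a line came from different passages in culture, so a p sets a difference against passage-to-passage spread, which may be technical. PC3-ML (Clone 3), DU-145 and DU-145 (PDGFRα) entered the model but are described only where their levels help.

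PDGFRα is a receptor tyrosine kinase at the cell surface. When PDGF ligands bring its chains together it phosphorylates itself, recruits adaptors such as GRB2 and SOS1 and the PI3-kinase regulatory subunits, and drives the RAS-MAPK and AKT pathways. In prostate cancer that spreads to the skeleton it has been studied as a receptor through which bone marrow signals reach tumour cells.

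Values are RMA intensities on a linear scale, which ran from 18.5 to 8654 over all arrays. The median gene intensity was 35.9 in Clone 1 and 36.5 in PC3-N(PDGFRα); a level below these lies near the low end, where a fold change is a low estimate. The passages of Clone 1 correlated at r = 0.9959 across genes and those of PC3-N(PDGFRα) at r = 0.9949, with genes not being independent replicates. The alpha-catenin gene CTNNA1, deleted in PC3 cells, read 24.1 and 23.5 in Clone 1 and 24.9 and 23.1 in PC3-N(PDGFRα), at the low end in all 4 arrays. The androgen-regulated luminal genes had 0 of 13 measured members called between the lines, and KLK3, which encodes prostate-specific antigen, read 24.2 to 27.2 over the 4 arrays. Of 10 fibroblast markers 0 were called. Their summed intensity was 347 to 357 in Clone 1 and 326 to 348 in PC3-N(PDGFRα). Of 14 leukocyte and endothelial markers 1 was called, the lysosomal protein CD68, which is not restricted to leukocytes. It read 93.6 and 99.5 in Clone 1 against 159 and 154, and the summed level of these markers was 485 to 528 against 563 to 643. Over all genes 11.6% were called between the lines, so lists this small could show 0 or 1 called without differing from other genes. The part of these markers in any result below was not tested.

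PDGFRA read 31.0 and 26.5 on the Clone 1 arrays and 817 and 850.4 on the PC3-N(PDGFRα) arrays. These levels chose the pair and are given without a test: the log2 difference was −4.86, a 29.1-fold gap that is a low estimate because Clone 1 lies near the low end. PC3-ML, the parent of Clone 1, read 104 and 155, and PC3-N read 103 and 109. The other PC3 clone, Clone 3, read 130.1 and 126. Clone 1 therefore lay below every other PC3 array and PC3-N(PDGFRα) above every one. The order among PC3-ML, PC3-N and Clone 3 is not resolved, since their arrays lie within or close to the spread of the PC3-ML passages.

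None of the 7 other measured members of the PDGF family list was called. Over all genes 11.6% were called, so a list this small could show none without differing from other genes. PDGFC, which encodes a ligand that activates PDGFRα, read 110.2 and 96.9 in Clone 1 and 106 and 122 in PC3-N(PDGFRα), and the arrays overlapped. The difference was −0.14 on the log2 scale (95% interval −0.37 to 0.10). PDGFA and PDGFB, which encode the classical ligand chains, and the second receptor gene PDGFRB all read between 24.2 and 33.2 in the 4 arrays. The lines differed at the receptor transcript by the choice of the pair, and at these levels no difference in a ligand transcript was detectable.

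Across 18372 genes, 2139 were called between Clone 1 and PC3-N(PDGFRα) by limma's moderated test at a Benjamini-Hochberg adjusted p under 0.05, which is 11.6% of those tested. Of these, 1252 were higher in Clone 1 (6.81%) and 887 lower (4.83%), PDGFRA included. Quantile normalization moved this split to 1087 higher and 984 lower, so the excess of higher genes depends on the processing. Most called differences were modest: 157 genes (0.855%) also differed at least 2-fold, 89 higher and 68 lower in Clone 1. Arrays of the lines did not overlap for 54.6% of all genes, so non-overlap alone is common here. The count fell by over 1.5 times when any of the 4 arrays was left out, to 1332 without Clone 1 replicate 1, 1063 without Clone 1 replicate 2, and to 1262 and 1145 without replicates 1 and 2 of PC3-N(PDGFRα). In those fits the remaining array is assumed to vary like the other lines.

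**Figure D1:**
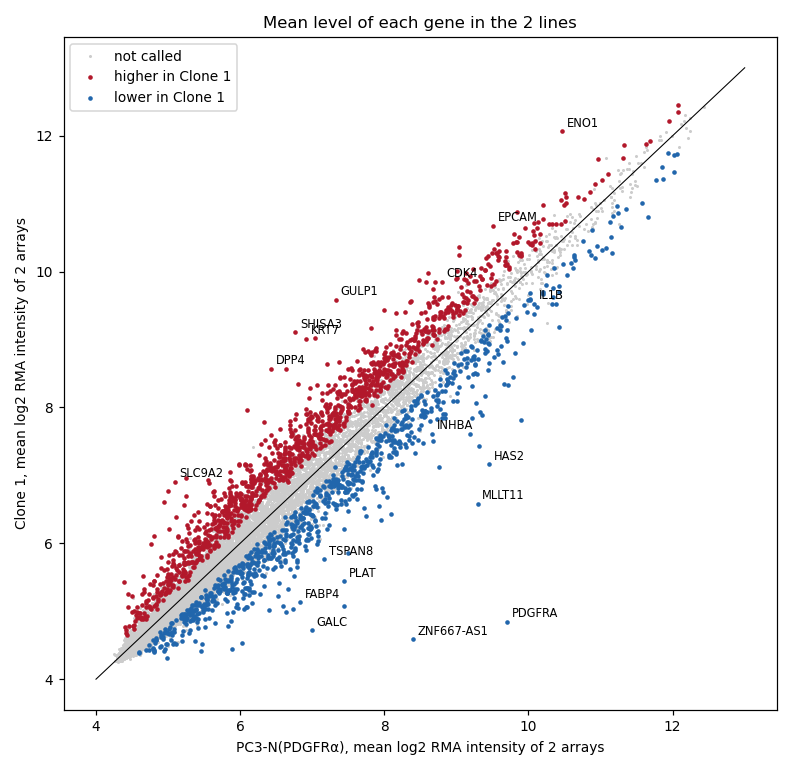
Each point is 1 of 18372 genes, plotted by its mean log2 RMA intensity of 2 arrays in PC3-N(PDGFRα) (horizontal axis) and in Clone 1 (vertical axis); red and blue points are the 1252 genes called higher and the 887 called lower in Clone 1, grey points were not called, and the line marks equal levels. PDGFRA lies farthest below the line, with ZNF667-AS1, MLLT11, HAS2 and GALC next to it, and SHISA3, GULP1 and DPP4 lie farthest above it.

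Among the genes highest in Clone 1 against PC3-N(PDGFRα) were surface, junction and keratin genes. SHISA3, a transmembrane protein of the Shisa family, read 488 and 622 in Clone 1 and 135 and 87.9 in PC3-N(PDGFRα). The log2 difference was 2.34 (SE 0.24, adjusted p = 4.1e-04). GULP1, an adaptor of the engulfment of dying cells, read 813 and 727 against 183 and 140.1 (2.26, SE 0.19, adjusted p = 1.8e-04). The largest rises and falls were named only among called genes whose arrays do not overlap, so their non-overlap adds no support. KRT7, a keratin of simple epithelia, read 461 and 579.7 in Clone 1 and 114 and 128 in PC3-N(PDGFRα). The latter were close to both parents, at 119.7 and 128 in PC3-ML and 142 and 157 in PC3-N, so the high level was on the Clone 1 side (2.10, SE 0.17, adjusted p = 1.8e-04).

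DPP4, a dipeptidyl peptidase of the cell surface, shows the opposite arrangement. It read 366 and 396 in Clone 1 and 114 and 64.8 in PC3-N(PDGFRα), a log2 difference of 2.15 (adjusted p = 0.0031). PC3-ML read 242 and 348 and PC3-N 549 and 259, so here PC3-N(PDGFRα) was the line below all others of PC3 origin. CLDN1, a claudin of tight junctions, read 336 and 425 in Clone 1 and 96.5 and 102 in PC3-N(PDGFRα), a difference of 1.93. Both parents lay between them, PC3-ML at 123 and 139 and PC3-N at 226 and 163. KRT18, the keratin that pairs with KRT8, read 201 and 309 against 87.9 and 53.6 (1.86, adjusted p = 0.020). That call was lost without Clone 1 replicate 2 or without PC3-N(PDGFRα) replicate 2 (adjusted p = 0.15 in each), and a dimmer KRT18 probe set gave 0.42.

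The remaining genes of the 15 largest rises spanned matrix, transport and metabolism. LMAN2, a cargo lectin of the secretory pathway, differed by 1.98. SLC9A2, a sodium-proton exchanger, read 118 and 122 in Clone 1 and 35.1 and 33.2 in PC3-N(PDGFRα), near the low end. VCAN, the matrix proteoglycan versican, read 100.2 and 119.9 against 30.1 and 33.9 (1.78, adjusted p = 3.7e-05). All other PC3 lines had VCAN between 31.5 and 36.7, so Clone 1 was the single PC3 line clear of the low end. HEPHL1, a copper ferroxidase, differed by 1.66, the axon-guidance semaphorin SEMA3A by 1.54, TMEM45B by 1.45, the ribosomal fusion gene FAU by 1.45 and the sialomucin PODXL by 1.44. ENO1, a glycolytic enolase, read 3718 and 4946 in Clone 1 and 1418 and 1405 in PC3-N(PDGFRα), a difference of 1.60 (adjusted p = 0.0050). Its PC3-ML passages themselves differed, at 599 and 1302.

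Below PDGFRA, the genes lowest in Clone 1 against PC3-N(PDGFRα) included matrix, lysosomal and protease genes. ZNF667-AS1, a long noncoding RNA antisense to a zinc finger gene, read 22.2 and 26.0 in Clone 1 and 352 and 322 in PC3-N(PDGFRα), a log2 difference of −3.81 (SE 0.21, adjusted p = 3.7e-05). Its neighbour's transcript cannot be told apart from it where the probes' strand is not given in the sources used here. MLLT11, a small protein known from leukaemia translocations, read 97.3 and 94.3 against 667 and 592 (−2.71, SE 0.23, adjusted p = 1.8e-04). PC3-N read 163 and 154 and PC3-ML 140.0 and 121, so the high level was on the side of PC3-N(PDGFRα).

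HAS2, which makes the matrix polysaccharide hyaluronan, read 171 and 121 in Clone 1 and 839.7 and 587 in PC3-N(PDGFRα). The difference was −2.29 (SE 0.22, adjusted p = 3.0e-04). PC3-ML read 544 and 531 and PC3-N 287 and 433, both between the pair. GALC, a lysosomal galactosylceramidase, read 25.5 and 27.3 in Clone 1 against 145 and 112, while every other PC3 array lay between 27.1 and 41.8, so this was a gene high in PC3-N(PDGFRα) alone among the PC3 lines (−2.27, adjusted p = 3.2e-05). PLAT, the tissue plasminogen activator, read 43.8 and 42.9 against 177 and 169.6 and was lower in Clone 1, with a 95% interval of −2.39 to −1.61 on the log2 scale (adjusted p = 2.1e-04). Both lines lay below their parents, at 244 and 333 in PC3-ML and 523 and 430.4 in PC3-N.

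FABP4, a fatty acid carrier, fell by 1.71 on the log2 scale and CCDC80, a secreted matrix protein, by 1.69, each with Clone 1 near the low end. The mitochondrial gene CHCHD7 fell by 1.66, RAB21, a small GTPase of endosomes, by 1.63, the cytokine receptor LIFR by 1.61, NDUFA12 of respiratory complex I by 1.58 and the homeobox gene HOXB9 by 1.52. TCN1, a vitamin B12 carrier, read 31.1 and 32.5 against 133 and 74.6 (−1.65, adjusted p = 0.0071), a call lost without PC3-N(PDGFRα) replicate 1 (adjusted p = 0.054). NUDT11, a diphosphoinositol phosphatase with a near-identical paralogue, fell by 1.63 and is uncertain where probes match both copies.

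**Figure D2:**
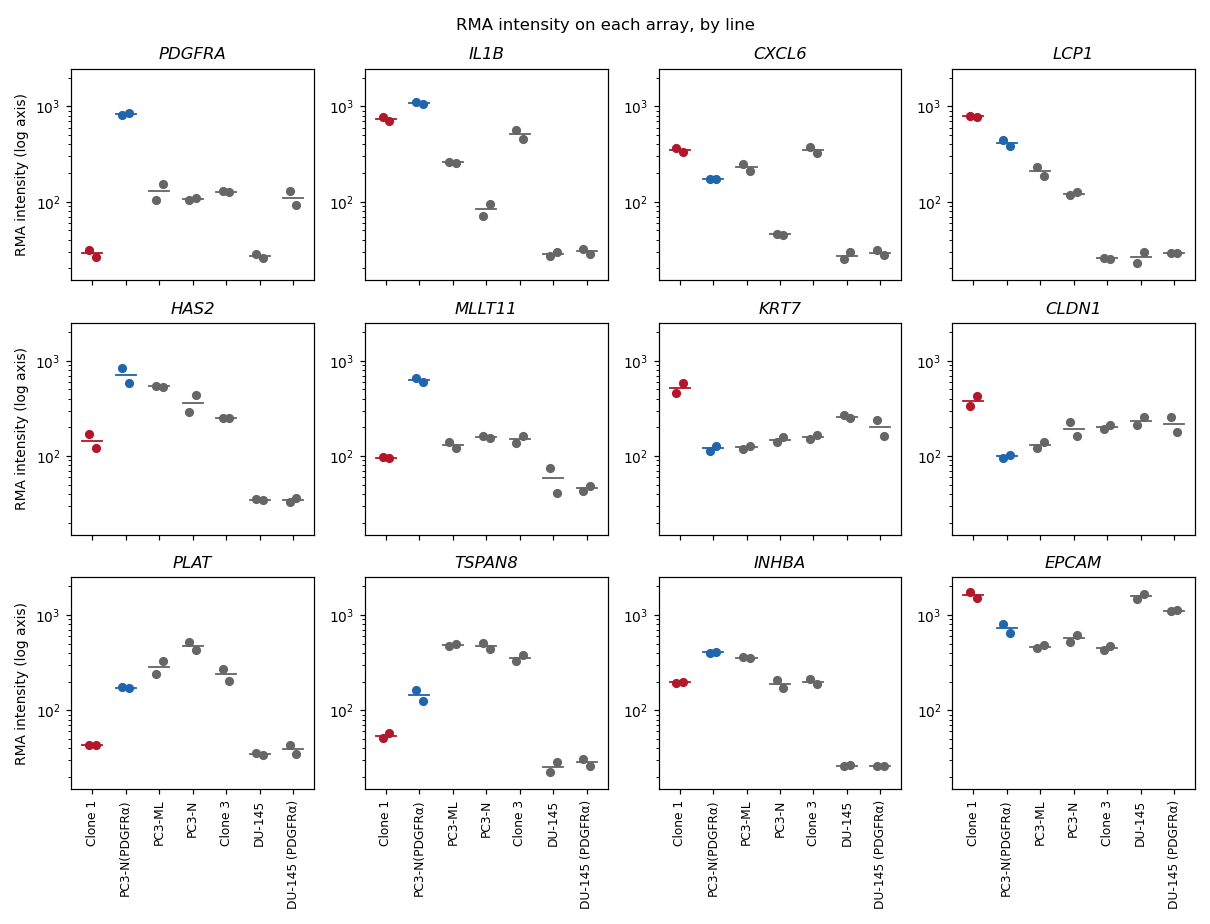
RMA intensity (vertical axis, log scale) of 12 genes on each of the 14 arrays, by line; points are arrays, bars are means of 2 arrays, Clone 1 is red, PC3-N(PDGFRα) blue and the other lines grey. Clone 1 was lowest of the PC3 lines for PDGFRA, HAS2, MLLT11, PLAT and TSPAN8 and highest for KRT7, CLDN1 and EPCAM, while IL1B and LCP1 were high in both lines of the pair.

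Genes that respond to receptor tyrosine kinases were read next. Counts between the lines for this and each later list stand beside shares over all genes of 6.81% higher and 4.83% lower in Clone 1. Of 23 measured signal relay genes 2 were called, near the share over all genes, and both were higher in Clone 1. SOS1, which activates RAS, read 280.2 and 297 against 223 and 186. CBL, which marks active receptors for degradation, read 168 and 178 against 144 and 137. Neither call held in any of the 4 fits that left out an array. The MAPK feedback and output genes had 6 of 23 members lower in Clone 1, 1 higher and 16 not called. Their median log2 difference was −0.29, against −0.02 over all genes. EMP1, a membrane protein induced by growth factors, read 42.6 and 39.9 in Clone 1 and 86.7 and 74.1 in PC3-N(PDGFRα) (−0.96). DUSP6, a phosphatase of ERK that ERK activity induces, read 40.1 and 40.7 against 68.5 and 66.2, with no overlap (−0.74, SE 0.11, adjusted p = 0.0022). DUSP4, a related phosphatase, fell by 0.55 and the ETS factor ETV4 by 0.45. CCND1, which encodes cyclin D1, was the member that rose, by 0.56. Leaving out single arrays ended the ETV4 call in 4 of 4 fits, the CCND1 call in 3 and the EMP1 call in 2.

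The parents show on which side of the pair the members stood. DUSP6 read 61.6 and 61.7 in PC3-N, which has PDGFRA near 106, and 66.2 to 68.5 in PC3-N(PDGFRα), a difference of 0.13 (adjusted p = 0.73). PC3-N(PDGFRα) was set against PC3-N, where 2.20% of all genes were called, and 0 of the 23 MAPK genes rose and 3 fell. Clone 1 against PC3-N, where 13.1% were called (8.02% higher and 5.11% lower), had 0 higher and 12 lower. Clone 1 against PC3-ML, where 13.8% were called, had 0 higher and 7 lower. The comparisons with PC3-N share its arrays. The count of 6 lower members went to 3 without Clone 1 replicate 1, to 2 without Clone 1 replicate 2 or PC3-N(PDGFRα) replicate 1, and to 4 without PC3-N(PDGFRα) replicate 2.

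Of 24 measured immediate early genes, which growth factors switch on within minutes, 1 rose and 1 fell. Both shares lay under those of all genes, 6.81% and 4.83%, so this list gave no result of its own. MYC was higher in Clone 1, at 295 and 319.9 against 243 and 229 (0.38), and JUN lower, at 61.0 and 54.6 against 78.3 and 71.0 (−0.37). The JUN call was lost under 9 of the alternatives tried, including each array left out, and the MYC call without Clone 1 replicate 2 or either PC3-N(PDGFRα) array. FOS, at 25.4 to 27.1, and EGR1, at 39.1 to 42.9, were not called. Among 15 genes that AKT signalling holds down through FOXO factors 3 rose and 0 fell. TXNIP, an inhibitor of thioredoxin and of glucose uptake, read 791 and 936 in Clone 1 against 423 and 397 (1.07, SE 0.20, adjusted p = 0.0079). SESN1, a stress sensor of the mTOR pathway, rose by 0.47 and the receptor gene ERBB3 by 0.43, a call lost in 3 of the 4 fits that left out an array (adjusted p up to 0.24). The 3 higher genes became 1 without Clone 1 replicate 2 or PC3-N(PDGFRα) replicate 2. PC3-N had TXNIP at 731 and 655, close to Clone 1, and PC3-ML at 341 and 373, close to PC3-N(PDGFRα). TXNIP lost its call without Clone 1 replicate 2 (adjusted p = 0.070) and without PC3-N(PDGFRα) replicate 2 (0.058).

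**Figure D3:**
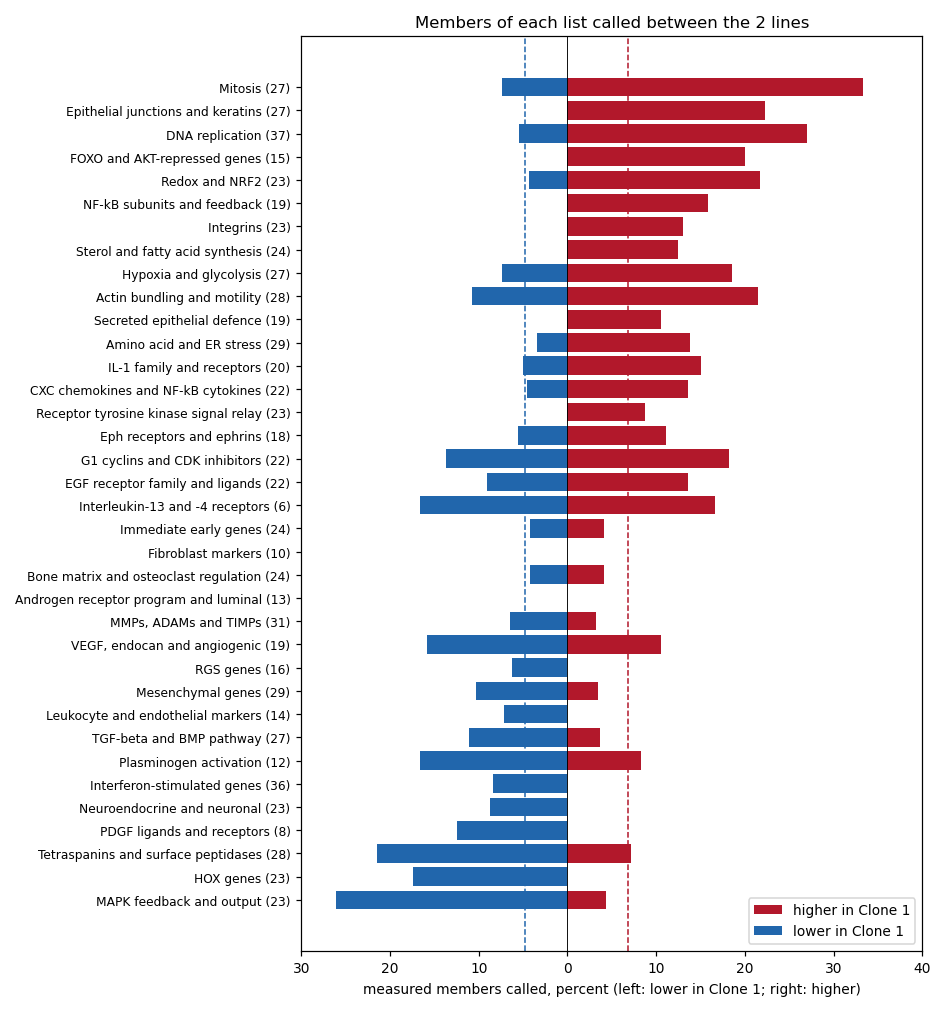
Share of the measured members of each gene list called between the lines, in percent; red bars to the right are members higher in Clone 1 and blue bars to the left members lower in Clone 1, with the number of measured members in parentheses. Dashed lines mark the shares over all genes, dim ones included, 6.81% higher and 4.83% lower. Among genes with a mean intensity of at least 50 in the pair the shares were 15.6% and 10.1%. Several lists lie beyond the red line, among them mitosis, DNA replication, redox, and epithelial junction and keratin genes. Several lie beyond the blue one, among them MAPK feedback, HOX, plasminogen activation and tetraspanin genes. Mitosis, DNA replication and tetraspanin genes pass both lines. The bar of the PDGF list is PDGFRA alone, which chose the pair.

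Epithelial junction and keratin genes were higher in Clone 1 as far as they were called: 6 of 27 rose, 0 fell and 21 were not called, with a median difference of 0.15. Beside KRT7, CLDN1 and KRT18 these were EPCAM, DSP and ESRP2. EPCAM, an epithelial adhesion molecule, read 1747 and 1522 in Clone 1 and 811 and 652 in PC3-N(PDGFRα) (1.17, SE 0.12, adjusted p = 5.0e-04), and a further EPCAM probe set gave 1.26. The parents, at 450.0 and 483 in PC3-ML and 519 and 619.8 in PC3-N, lay below all 4 arrays of the pair. DSP, the desmosome protein desmoplakin, differed by 0.63. CDH1, which encodes E-cadherin, was at 28.3 and 32.3 against 29.3 and 27.7, near the low end in both lines. The count of 6 went no lower than 4 under any alternative.

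Of 29 mesenchymal genes 1 rose and 3 fell. ZEB1, a repressor of epithelial genes, was lower in Clone 1, at 61.0 and 63.7 against 95.1 and 95.4 (−0.61, adjusted p = 0.0063). The collagen VI genes COL6A1 and COL6A2 fell by 0.45 and 0.40, and the matrix protein tenascin, TNC, rose by 0.54. VIM, which encodes vimentin, read 331 and 344 against 286 and 271 (0.28, 95% interval 0.01 to 0.54, adjusted p = 0.19), and CDH2, N-cadherin, had overlapping arrays. The mesenchymal filament and cadherin genes therefore did not follow ZEB1. COL6A1 and COL6A2 lie on chromosome 21, whose genes were lower in Clone 1 as a whole, as given below. Without single arrays 0 mesenchymal genes rose and 1 or 2 fell, and COL6A1 lost its call in 3 of the 4 fits and COL6A2 and TNC in all 4.

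HOX genes had 4 of 23 members lower in Clone 1 and 0 higher, and all 4 belong to the HOXB cluster. HOXB9 read 35.1 and 32.5 in Clone 1 and 102 and 90.9 in PC3-N(PDGFRα) (−1.52, SE 0.11, adjusted p = 1.2e-04). HOXB6 read 48.6 and 65.5 against 119.5 and 94.7, a fall of 0.91 on the log2 scale. HOXB5 fell by 0.44 and HOXB7 by 0.41, and both lost their calls after quantile normalization (adjusted p = 0.056 and 0.081) and in at least 3 of the 4 fits that left out an array. For HOXB9 PC3-ML read 139 and 119.9 and PC3-N 45.6 and 54.6, so Clone 1 lay below both parents and PC3-N(PDGFRα) between them. The count of 4 stood at 2 without Clone 1 replicate 1 or PC3-N(PDGFRα) replicate 2.

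Tetraspanins and surface peptidases gave 6 of 28 lower and 2 higher in Clone 1. TSPAN8, a tetraspanin of epithelial tumours, read 50.8 and 58.1 in Clone 1 and 163 and 127 in PC3-N(PDGFRα) (−1.40, SE 0.15, adjusted p = 5.9e-04). TM4SF1, a related membrane organiser, read 293 and 354 against 961 and 739 (−1.39, adjusted p = 0.0026). CD24, a small mucin-like antigen, fell by 0.96, a call lost in 3 of the 4 fits that left out an array (adjusted p up to 0.19). TSPAN15, which regulates the protease ADAM10, rose by 1.02, beside DPP4.

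In plasminogen activation 2 of 12 genes were lower and 1 higher in Clone 1. Beside PLAT the lower gene was S100A10, a plasminogen receptor subunit, at 861 and 799.9 against 1439 and 1308, and the higher one ENO1, whose product also binds plasminogen at the cell surface. PLAU, the urokinase gene, read 234 and 289 against 277 and 282 (−0.10, 95% interval −0.53 to 0.33), so the activators did not move as a pair. Among 31 metalloproteinase, ADAM and TIMP genes 1 rose and 2 fell, near or under the shares over all genes. TIMP1, an inhibitor, rose by 0.79, and ADAMTS1 and MMP14 fell by 0.63 and 0.46. None of these 3 calls held when Clone 1 replicate 2 was left out.

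Integrins gave 3 of 23 higher and 0 lower. ITGA5, the fibronectin receptor chain, read 52.4 and 63.2 against 40.3 and 38.7, a rise of 0.54. ITGB3, the beta chain of the vitronectin receptor, rose by 0.45 and ITGA6, a laminin receptor chain, by 0.40. Each of the 3 was lost in at least 2 of the fits that left out an array. Actin bundling and motility genes had 6 of 28 higher and 3 lower, with 2 to 5 higher when an array was left out. LCP1, which encodes the actin bundler L-plastin and is normally a gene of blood cells, read 804 and 782 in Clone 1 against 445 and 385 (0.94, SE 0.13, adjusted p = 0.0020). ELMO1, the partner of DOCK proteins, stayed near the low end, at 21.2 and 21.5 against 22.1 and 23.1 (−0.08, adjusted p = 0.43).

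Cell cycle lists differed in how they split. Of 27 mitosis genes 9 rose, 2 fell and 16 were not called, with a median difference of 0.29. KIF20A, a kinesin of cytokinesis, read 313 and 328 in Clone 1 and 159.7 and 140.0 in PC3-N(PDGFRα) (1.10). TTK, a spindle checkpoint kinase, read 235 and 246 against 135 and 109 (0.99, SE 0.11, adjusted p = 6.1e-04), with no overlap. NDC80, which ties chromosomes to the spindle, rose by 0.84, the proliferation antigen MKI67 by 0.68 and the spindle motor KIF11 by 0.52. In each leave-one-out fit 6 or 7 mitosis genes remained higher, and 6 after quantile normalization.

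Of 37 DNA replication genes 10 were higher, 2 lower and 25 not called, with a median of 0.25. RFC2, a clamp loader subunit, read 299 and 322 against 157 and 156 (0.99). MCM3, part of the replicative helicase, read 377 on both Clone 1 arrays against 192 and 209 (0.91). The primase gene PRIM1 rose by 0.81 and POLA2 of polymerase alpha by 0.76. GINS4, another helicase component, moved the other way, at 59.5 and 56.9 against 108 and 103 (−0.86), a call lost without Clone 1 replicate 2 or PC3-N(PDGFRα) replicate 1. With an array left out 6 or 7 replication genes were higher. Against its own parent PC3-ML, Clone 1 had 15 of the 37 higher and 1 lower, where 9.01% of all genes were higher and 4.77% lower. PC3-N(PDGFRα) against PC3-N had 0 called in either direction. Only 2.20% of all genes were called there, so a list of 37 could show 0 without differing from other genes.

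Among G1 cyclins and CDK inhibitors 4 of 22 rose and 3 fell. CDK4, the kinase that cyclin D1 activates, read 948 and 893 in Clone 1 and 462 and 432 in PC3-N(PDGFRα) (1.04, SE 0.12, adjusted p = 7.1e-04). With Clone 1 replicate 2 or PC3-N(PDGFRα) replicate 2 left out 2 rose, and without PC3-N(PDGFRα) replicate 1 only 1 fell. BTG1, an antiproliferative gene, fell by 0.50 and the polo-like kinase PLK2 by 0.60, with BTG1 losing its call in 3 of the 4 fits. CCNA1, the germline cyclin A1, read 46.2 and 55.8 against 37.2 and 29.5, a rise of 0.62 between lines that both lay well under their parents, and its call was lost in 2 of the fits. CDK4 and PRIM1 sit in the block of chromosome 12 genes described below, where 25 of 35 genes were higher in Clone 1.

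In metabolism, hypoxia and glycolysis genes had 5 of 27 higher and 2 lower, among them ENO1. The glucose transporter SLC2A1 read 85.2 and 117 in Clone 1 against 57.2 and 46.5 (0.95), collagen prolyl hydroxylase P4HA1 rose by 0.68 and aldolase ALDOA by 0.65. VEGFA, a growth factor for vessels that hypoxia induces, fell by 0.77, at 43.9 and 48.6 against 75.5 and 82.7, so the list did not move one way. With an array left out 2 to 5 rose. VEGFA lost its call in each of the 4 fits, and SLC2A1 and P4HA1 in 2. SHMT2, which makes one-carbon units from serine, read 551 and 607 in Clone 1 and 232 and 219 in PC3-N(PDGFRα) (1.36, SE 0.17, adjusted p = 1.0e-03). It led the amino acid and ER stress genes, of which 4 of 29 rose and 1 fell, with 1 higher without Clone 1 replicate 2 or PC3-N(PDGFRα) replicate 1.

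The chaperone HSPA5 rose by 0.78 and the secreted hormone STC2 by 0.95, while the ER chaperone DNAJB9 fell by 0.68. With single arrays left out HSPA5 lost its call in 4 of 4 fits (adjusted p from 0.10 to 0.13), DNAJB9 in 3 and STC2 in 2. Sterol and fatty acid genes had 3 of 24 higher and 0 lower, led by ACACA, the first enzyme of fatty acid synthesis, at 219.8 and 261 against 115 and 103. The others were SC5D (0.67) and SQLE (0.53). Without Clone 1 replicate 2, 0 of these were called. Redox genes had 5 of 23 higher and 1 lower. The higher ones included TKT of the pentose phosphate pathway (0.82) and the ferritin light chain FTL (0.63), and thioredoxin, TXN, fell by 0.59. TKT lost its call in 3 of the 4 fits and FTL and TXN in 2. The higher redox genes went from 5 to 1 without Clone 1 replicate 2 or PC3-N(PDGFRα) replicate 2.

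TGF-beta and BMP genes had 1 of 27 higher and 3 lower. With an array left out 0 were higher and 1 to 3 lower, with 1 lower without Clone 1 replicate 1 or PC3-N(PDGFRα) replicate 1. INHBA, which encodes the activin A subunit, read 195 and 197 in Clone 1 and 399 and 414 in PC3-N(PDGFRα) (−1.05, SE 0.09, adjusted p = 1.8e-04). PC3-N read 207 and 169.6, level with Clone 1, and PC3-ML 361 and 350.4, close to PC3-N(PDGFRα). FST, the activin antagonist follistatin, fell by 0.63, at 377 and 412 against 673 and 553, and the receptor BMPR1B by 0.73, calls lost in 2 and 3 of the 4 fits. SMAD3, a signal carrier of the pathway, rose by 0.29, a call lost under 9 alternatives. Of 24 bone matrix and osteoclast genes 1 rose and 1 fell: DKK1, a Wnt antagonist that restrains bone formation, at 738 and 639 against 523 and 534, and RUNX2, the osteoblast factor, at 31.3 and 28.4 against 45.4 and 37.0. With both shares near those of all genes, this list gave no result of its own, and DKK1 and RUNX2 lost their calls in 3 and 2 of the 4 fits.

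Growth factor genes moved in both directions. In the EGF receptor family list 3 of 22 rose and 2 fell. IGFBP3, a carrier of insulin-like growth factors, read 105 and 101 in Clone 1 and 232 and 297 in PC3-N(PDGFRα) (−1.35, SE 0.20, adjusted p = 0.0027). PC3-N, at 91.7 and 106, was level with Clone 1. IGFBP4 fell by 0.84, FGF2 rose by 0.71 and TGFA by 0.30. The 3 higher genes became 1 in 3 of the 4 fits that left out an array, all but that without Clone 1 replicate 1, and TGFA was called in none. The angiogenic genes had 2 of 19 higher and 3 lower, with the semaphorin and VEGF co-receptor NRP1 up by 0.88, and VEGFA, VEGFC and the ephrin EFNB2 down. No VEGF-list gene kept its call without Clone 1 replicate 2. Of 18 Eph and ephrin genes 2 rose, EPHA7 and EPHA5, and EFNB2 fell. EPHA5 lost its call in all 4 fits and EPHA7 and EFNB2 in 2, and 0 rose without Clone 1 replicate 2 or PC3-N(PDGFRα) replicate 2. RGS2, a brake on G-protein signalling, was the 1 RGS gene of 16 called, at 271 and 309 against 414 and 438, a call lost without Clone 1 replicate 1 or PC3-N(PDGFRα) replicate 2.

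Interferon-stimulated genes had 3 of 36 lower in Clone 1 and 0 higher, with a median of −0.20. PSMB9, a subunit of the immunoproteasome, read 33.3 and 33.4 in Clone 1 and 61.5 and 60.9 in PC3-N(PDGFRα) (−0.88, adjusted p = 0.0051). The parents read between 27.0 and 34.5, so PC3-N(PDGFRα) was the line that stood out. B2M, the light chain of MHC class I, fell by 0.51 and SAMD9L by 0.54. The 3 calls held in all 4 fits that left out an array. Of 23 neuroendocrine and neuronal genes 2 were lower, MLLT11 and the growth cone protein GAP43 (−0.27), the latter lost in 2 of the fits.

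Inflammatory genes stood among those high in both lines against PC3-N. Of 22 CXC chemokine and cytokine genes, 5 were higher than PC3-N in Clone 1 and 4 in PC3-N(PDGFRα), with 0 lower. Over all genes those shares were 8.02% and 1.52% higher. Against its own parent PC3-ML, Clone 1 had 2 higher and 2 lower, where 9.01% of all genes were higher and 4.77% lower. There the IL-1 family list had 4 of 20 higher and 1 lower, and the NF-kB list 4 of 19 and 0. Interleukin-1 beta is a cytokine that activates the transcription factor NF-kB, and the CXC chemokines CXCL1, CXCL6 and CXCL8 attract neutrophils through CXCR1 and CXCR2. NF-kB switches on these chemokines and also NFKBIA, which encodes its own inhibitor. The stretches upstream of CXCL6, CXCL1, CXCL8 and NFKBIA are shown because these genes were high in both lines and carry a match to one NF-kB motif. That of CXCL5, which was not in this group, is shown beside CXCL6. All stretches run from 140 to 21 bases before each gene's annotated start, 5′ to 3′ on the gene's strand. They come from RefSeq promoters of GRCh38.p14, with the motif in capitals.

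CXCL6: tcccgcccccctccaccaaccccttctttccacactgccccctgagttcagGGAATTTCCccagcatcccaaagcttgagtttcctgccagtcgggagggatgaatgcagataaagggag
CXCL1: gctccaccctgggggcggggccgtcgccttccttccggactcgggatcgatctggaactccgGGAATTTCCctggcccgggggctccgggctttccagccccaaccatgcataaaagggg
CXCL8: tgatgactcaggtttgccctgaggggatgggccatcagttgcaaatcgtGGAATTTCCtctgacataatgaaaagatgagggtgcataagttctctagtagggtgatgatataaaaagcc
CXCL5: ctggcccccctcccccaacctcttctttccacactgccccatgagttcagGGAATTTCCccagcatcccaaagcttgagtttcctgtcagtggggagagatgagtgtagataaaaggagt
NFKBIA: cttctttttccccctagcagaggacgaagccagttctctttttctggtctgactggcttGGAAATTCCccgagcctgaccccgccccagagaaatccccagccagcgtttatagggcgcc

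The CXCL6, CXCL1 and CXCL8 stretches are chr4:73836538-73836657, chr4:73869253-73869372 and chr4:73740429-73740548 on the plus strand. CXCL5 is chr4:73998698-73998817 and NFKBIA chr14:35404770-35404889, both on the minus strand. The motif searched was GGAATTTCC or its reverse complement GGAAATTCC in the 250 bases before the start. It was found in 117 of 27305 promoters (0.428%) and in 57 of the 14207 promoters of genes tested (0.401%). Genes called higher than PC3-N in both lines had it in 5 of 127 available promoters (3.94%). CXCL6, CXCL1, CXCL8 and NFKBIA, printed above, are among these 5. They belong to the chemokine and NF-kB lists and were printed for their match. The share of 3.94% is therefore a description and was not tested. The chemokine and NF-kB lists had it in 12 of 32 (37.5%). Their members were chosen for a link to NF-kB or to the chemokines, so that share is no result of these data. IL1B, ESM1 and LCP1 have no match in this window, which says nothing of the factor. A match is a description of the letters, not a bound site. CXCL5, with the motif at base −90 and a stretch much like that of CXCL6, with its motif at −89, lay on the other side of the pair: CXCL6 was higher in Clone 1 than in PC3-N(PDGFRα) and CXCL5 lower, the CXCL5 call being lost in 3 of the 4 fits that left out an array.

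IL1B read 770.1 and 704 in Clone 1, 1103 and 1066 in PC3-N(PDGFRα), 264 and 258 in PC3-ML and 71.4 and 95.5 in PC3-N. The pair lay above both parents without overlap, and between the pair IL1B was lower in Clone 1 (−0.56, SE 0.14, adjusted p = 0.025). That difference was not called in any of the 4 fits that left out an array (adjusted p from 0.067 to 0.16). CXCL6 read 371 and 330.0 in Clone 1, 172 and 175 in PC3-N(PDGFRα), 250.3 and 209.8 in PC3-ML and 45.9 and 45.0 in PC3-N. It was 2.02-fold higher in Clone 1 than in PC3-N(PDGFRα) (1.01, SE 0.12, adjusted p = 7.5e-04), so the order of the pair was the reverse of that for IL1B.

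CXCL1 read 523 and 450.1 against 339 and 292, a rise of 0.62 in Clone 1 with an adjusted p of 0.042 that was lost when any array was left out (up to 0.23). CXCL8 read 428 and 505 against 319 and 307 and was not called (0.57, 95% interval −0.04 to 1.18). NFKBIA read 201 and 204 against 207 and 184, with overlapping arrays and a difference of 0.05 (95% interval −0.21 to 0.31). CXCL5 read 39.0 and 39.4 in Clone 1 against 48.1 and 55.2 (−0.40, adjusted p = 0.024), a call lost in 3 of the 4 fits that left out an array (adjusted p up to 0.18). CXCL2 read 85.6 and 70.6 against 133 and 122 (−0.71, adjusted p = 0.15). CXCL1, CXCL2 and CXCL3 are close paralogues, and probes may not keep them fully apart.

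By lists, 3 of 22 CXC chemokine and cytokine genes were higher and 1 lower in Clone 1 than in PC3-N(PDGFRα), among 20 IL-1 family genes 3 and 1, and among 19 NF-kB genes 3 and 0. The higher IL-1 genes became 1 in each of the 4 fits that left out an array, and the higher chemokine genes 1 in 3 of them and 2 without PC3-N(PDGFRα) replicate 1. The NF-kB genes were SOD2, the mitochondrial superoxide dismutase, at 268 and 297 against 165 and 159.7 (0.80), NFKB1, which encodes the p50 subunit (0.54), and the adhesion molecule ICAM1 (0.51). None of them was called without Clone 1 replicate 2 or without PC3-N(PDGFRα) replicate 2. IL18 (0.62), its receptor IL18R1 (0.43) and the adaptor MYD88 (0.36) were higher in the IL-1 list, where IL18R1 alone was called in all 4 of those fits. Secreted defence genes gave 2 of 19 higher: lipocalin LCN2, at 57.0 and 98.2 against 37.5 and 40.3, and complement C3, at 44.9 and 69.1 against 29.8 and 29.8. Both lost their calls in 3 of the 4 fits.

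In all, 150 genes (0.816%) were called higher than PC3-N in both lines. They are 10.2% of the 1474 genes higher in Clone 1 and 53.6% of the 280 higher in PC3-N(PDGFRα). Both comparisons use the same PC3-N arrays, so this count is not one of independent lists. The 2412 genes called in Clone 1 against PC3-N were 1514 and 1325 without replicates 1 and 2 of Clone 1. The count depends on PC3-N(PDGFRα) and PC3-N: it was 26 and 73 without replicates 1 and 2 of PC3-N(PDGFRα), and 40 without PC3-N replicate 1. With each comparison fitted on its own 4 arrays it was 3, since 6 genes were then called in PC3-N(PDGFRα) against PC3-N where 405 had been. Between Clone 1 and PC3-N(PDGFRα) themselves, 41 of the 150 were higher in Clone 1, 7 lower and 102 not called.

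The 12 genes of this group with the largest smaller rise were IL1B, ESM1, CXCL6, PI3, LCP1, CST1, IL13RA2, CXCL8, KIF5C, NFKBIA, SLC41A2 and CXCL1. ESM1, which encodes the secreted proteoglycan endocan, read 149 and 146 in Clone 1, 108 and 107 in PC3-N(PDGFRα) and 21.7 and 29.4 in PC3-N. PC3-ML, at 126 and 123, had this level already, and the difference within the pair, 0.45, was at the edge of the threshold (adjusted p = 0.050, up to 0.19 over alternatives). PI3, the elastase inhibitor elafin, read 937 and 1219 against 1551 and 1161, with overlapping arrays (−0.33, 95% interval −0.79 to 0.14), while PC3-N read 260.0 and 356. CST1, a secreted cysteine protease inhibitor, read 70.6 and 117 against 81.6 and 87.0 (0.11, 95% interval −0.40 to 0.62), with PC3-N at 23.2 and 29.1.

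IL13RA2, a decoy receptor for interleukin-13, read 333 and 267 in Clone 1, 164 and 119.6 in PC3-N(PDGFRα) and 50.2 and 61.2 in PC3-N. The 3 lines did not overlap, and Clone 1 exceeded PC3-N(PDGFRα) by 1.09 (adjusted p = 0.0072). That call was lost without Clone 1 replicate 1 (0.060) and without PC3-N(PDGFRα) replicate 2 (0.065). The signalling chain IL13RA1 went the other way within the pair (−0.57), a call lost without Clone 1 replicate 1 or PC3-N(PDGFRα) replicate 1. KIF5C, a neuronal kinesin, read 111 and 119 against 67.4 and 70.1 (0.74, adjusted p = 0.0025). SLC41A2, a magnesium transporter, read 106 and 105 against 87.4 and 64.1 and was not called (0.50, 95% interval 0.17 to 0.82, adjusted p = 0.057).

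To set the pair side by side without a shared control, each line was taken against its own parent. The parents themselves differed in few called genes, 64 (0.348%). That count was 15 with PC3-ML replicate 1 left out, and 12 and 170 with replicates 1 and 2 of PC3-N left out. Clone 1 had 1656 genes higher (9.01%) and 877 lower (4.77%) than PC3-ML, a split that quantile normalization moved to 1250 and 1087. The total of 2533 went to 1632 and 1256 without replicates 1 and 2 of Clone 1 and to 1213 without PC3-ML replicate 1. PC3-N(PDGFRα) had 280 higher (1.52%) and 125 lower (0.680%) than PC3-N, 405 in all, where the fits without its replicates 1 and 2 called 71 and 158 and that without PC3-N replicate 1 called 118. In both comparisons 101 genes were higher (0.550% of all genes), which is 6.10% of the Clone 1 list and 36.1% of the PC3-N(PDGFRα) list. Lower in both were 41, or 4.68% and 32.8%, and 40 were called in opposite directions. The 101 became 13 without PC3-N(PDGFRα) replicate 1, 50 without its replicate 2, 29 without PC3-N replicate 1, 66 without PC3-ML replicate 1 and 67 without Clone 1 replicate 2. With only the lines compared it was 2.

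**Figure D4:**
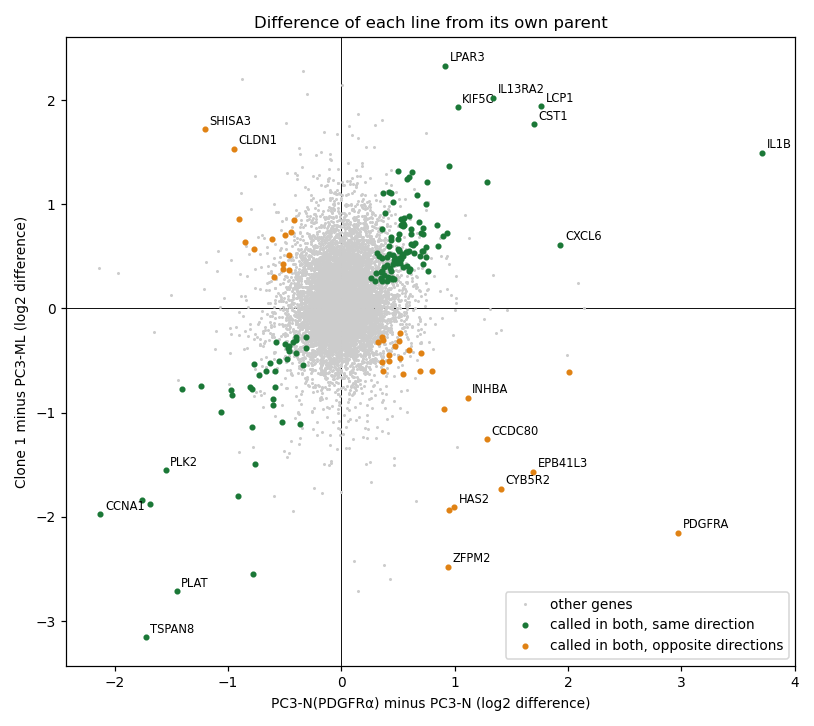
Log2 difference of PC3-N(PDGFRα) from PC3-N (horizontal axis) against that of Clone 1 from PC3-ML (vertical axis), 1 point per gene; green points were called in both comparisons in the same direction, orange points in opposite directions, and the comparisons share no arrays. IL1B, LCP1, IL13RA2, CST1, KIF5C and LPAR3 rose in both, TSPAN8, PLAT, CCNA1 and PLK2 fell in both, and PDGFRA, ZFPM2, CYB5R2 and EPB41L3 rose in PC3-N(PDGFRα) and fell in Clone 1.

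The 10 genes that led the rises over both parents were LCP1, CST1, IL1B, IL13RA2, KIF5C, SLC41A2, LPAR3, DSE, LYRM2 and RAB3B. LCP1 rose by 1.94 over PC3-ML in Clone 1, from 231 and 185 to 804 and 782, and by 1.76 over PC3-N in PC3-N(PDGFRα), from 117 and 127 to 445 and 385. The size of these changes did not differ detectably (departure difference 0.17, adjusted p = 0.75). LPAR3, a lysophosphatidic acid receptor, read 126 and 132 in Clone 1 over 24.7 and 26.6 in PC3-ML, and 90.8 and 74.7 in PC3-N(PDGFRα) over 52.6 and 36.1 in PC3-N. Its rise was larger in Clone 1 (1.41, adjusted p = 0.0051). DSE, which shapes dermatan sulfate chains, rose by 0.80 and 0.84, RAB3B of regulated secretion by 1.00 and 0.74, and LYRM2 by 1.21 and 0.76. CXCL6 was not on this list by size, rising by 0.61 over PC3-ML and 1.93 over PC3-N.

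For genes under both parents the same rule was applied after the values were seen. TSPAN8 fell by 3.15 in Clone 1, from 476 and 492 in PC3-ML to 50.8 and 58.1, and by 1.72 in PC3-N(PDGFRα), from 505 and 445 to 163 and 127. CCNA1 fell by 1.98 and by 2.12, and the log2 falls did not differ detectably (departure difference 0.15, adjusted p = 0.81). PLK2, a kinase of the stress response, fell by 1.55 in each. PLAT fell by 2.72 and 1.45. TFF1, a trefoil peptide of mucous epithelia, fell by 1.88 and 1.69, with overlapping arrays between the pair, at 79.4 and 109 against 181 and 103.

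The difference between the departures, that of Clone 1 less that of PC3-N(PDGFRα), was called for 1287 genes (7.01%), 761 positive and 526 negative, or 4.14% and 2.86%, a split that became 604 and 654 after quantile normalization. The count fell to 579 without Clone 1 replicate 2, 790 without PC3-N(PDGFRα) replicate 1, 665 without its replicate 2, 580 without PC3-ML replicate 1 and 779 without PC3-N replicate 1. On the negative side stood ZFPM2 (−3.42), EPB41L3 (−3.26), CYB5R2 (−3.14), HAS2 (−2.90) and HOXB9 (−2.89), beside PDGFRA. ZFPM2, a cofactor of GATA factors, read 119 and 142 in PC3-ML and 23.4 and 23.1 in Clone 1, but 36.3 and 31.6 in PC3-N and 69.8 and 60.5 in PC3-N(PDGFRα). EPB41L3, a membrane skeleton protein, went from 204 and 235 to 73.3 and 74.6 on the Clone 1 side and from 46.5 and 62.7 to 183 and 165 on the other. For ZFPM2 and EPB41L3 the parents lay far apart, with PC3-ML the higher. Clone 1 lay below PC3-ML and PC3-N(PDGFRα) above PC3-N for both genes.

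On the positive side were KRT18 (3.07), SHISA3 (2.92), ENO1 (2.61), DPP4 (2.52), CLDN1 (2.48) and KRT7 (2.36). Of the 27 epithelial junction and keratin genes, 7 were positive and 0 negative here, with a median of 0.37. Clone 1 had 7 of them higher and 0 lower than PC3-ML, where 9.01% of all genes were higher and 4.77% lower. PC3-N(PDGFRα) had 1 higher and 1 lower than PC3-N, where 2.20% of all genes were called. KRT18 had unequal passages in both parents, at 36.3 and 80.8 in PC3-ML and 168 and 94.1 in PC3-N.

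Called genes were not spread evenly over the genome. Among 6898 genes with a mean intensity of at least 50 in the pair, 15.6% were higher and 10.1% lower in Clone 1. Chromosome 21 had 0 of 83 genes higher and 24 lower (28.9%), with a median difference of −0.30. The median was −0.40 for Clone 1 against PC3-ML and −0.15 for PC3-N(PDGFRα) against PC3-N. Chromosome 8 had 5.02% higher and 25.5% lower and the X chromosome 7.56% and 23.5%. Chromosomes 13, 10 and 22 had over 26% of genes higher and under 4% lower.

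**Figure D5:**
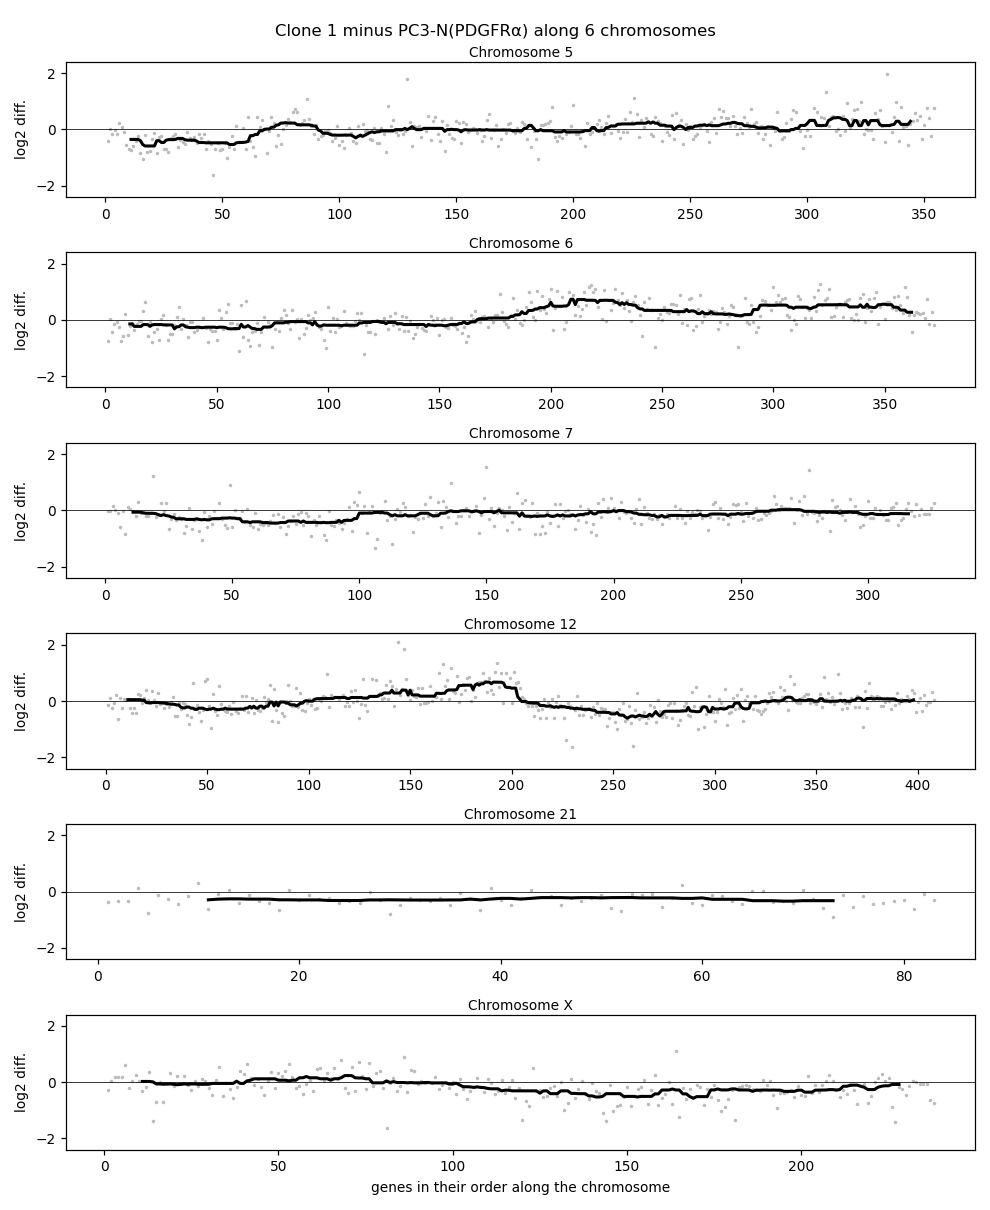
Log2 difference between Clone 1 and PC3-N(PDGFRα) (vertical axis) for genes in their order along 6 chromosomes (horizontal axis, rank); grey points are genes with a mean intensity of at least 50 in the pair and black lines running medians of 21 genes. The line stays below 0 along chromosome 21, lies above 0 in the later genes of chromosome 6 and below 0 at the start of chromosome 5, and turns from positive to negative within chromosome 12.

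Within chromosomes, neighbouring genes moved together. Taking the running median of 21 genes in chromosomal order, 16 stretches of at least 15 genes stayed beyond 0.3, 9 of them higher and 7 lower in Clone 1. They were chosen by these differences, so their counts are a description. The 35 genes from DGKA to METTL1 on chromosome 12, CDK4, SHMT2 and PRIM1 among them, had 25 higher, 0 lower and a median of 0.61. Its median was 0.67 for Clone 1 less PC3-ML, but −0.06 for PC3-N(PDGFRα) less PC3-N. In another stretch of chromosome 12, the 48 genes from ZDHHC17 to HSP90B1, with NDUFA12, DUSP6 and BTG1, had 24 lower and 0 higher. There the medians were −0.20 for Clone 1 against its parent and 0.30 for PC3-N(PDGFRα) against its own.

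On chromosome 6 the 65 genes from PHF3 to ZBTB24, with TTK, SESN1 and LYRM2, had 38 higher and 3 lower, and the 69 from MED23 to IGF2R, with SOD2, had 37 higher and 1 lower. The 51 genes from MED10 to ITGA2 on chromosome 5, with LIFR, had 30 lower and 0 higher, and a median of −0.57 for Clone 1 against PC3-ML. On chromosome 7 the 44 genes from CYCS to YKT6, which include INHBA, had 16 lower and 0 higher. All 16 stretches together hold 7.92% of the ordered genes and 15.5% of those called. CD24, lower in Clone 1, lies in the higher stretch from PHF3 to ZBTB24, and ZFHX4, higher in Clone 1, in a lower stretch of chromosome 8, so named genes did not all share the direction of their neighbours. The part of gene dosage in any of these differences was not tested.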

How the data were processed

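Total RNA of 7 prostate cancer lines, 2 arrays each from different passages, was hybridised after biotin labelling, per the labels. The deposited values are intensities after RMA, per the submitters' processing notes; version and genome build are not given in the sources used here. Their range shows a linear scale; log2 was taken without a pseudocount. Of 28829 probe sets 19291 carry 1 gene symbol of the platform annotation, 1735 several and 7803 none. The 19260 identifiers matched in a RefSeq table (GRCh38.p14) changed 0 symbols. For 682 genes the brightest of several probe sets was used, leaving 18372 genes with no filter on low values. Precision is limited by the number of arrays.

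The linear model had a mean for each of the 7 lines, used all 14 arrays and was run in limma 3.58.1 (R 4.3.3), with 7 residual and 2.78 prior degrees of freedom. P-values were two-sided and Benjamini-Hochberg adjusted over all genes, and a gene was called under 0.05; counts and figures used Python 3.11.15, pandas 2.3.3 and matplotlib 3.10.9. Tested on simulated data for Clone 1 against PC3-N(PDGFRα) with 18372 genes, the model called 30 of 50 genes set to a log2 difference of 0.5, 44 of 50 set to 1, 50 of 50 set to 2, 47 of 50 set to −1 and 17 of 18172 unchanged genes. The 17 false calls also weigh against the true calls, which are far fewer than 18172. Simulated noise was normal and independent between genes. Far fewer genes were changed than were called in the data, so these rates need not hold there.

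The members and the 37 gene lists (844 genes) were chosen with earlier results of these data known. Named were the 15 largest rises and falls among called genes whose arrays do not overlap, the 12 and 10 genes with the largest smaller rise over PC3-N and over the own parent, up to 12 called in opposite directions against PC3-N, the 6 largest departure differences in each direction, up to 5 called members of each list by size (values of up to 2 where none was called), and PDGFRA, IL1B, CXCL6 and ELMO1. Small RNAs, Y-linked genes, XIST, immunoglobulin and olfactory genes and placeholder names were not named. Some called members of the actin bundling and motility list are not reported here. Genes given outside this rule were chosen as background members of a list, or after their values were seen. Alternatives were a replicate block, quantile normalization, a filter keeping the brighter 60% of genes, fits on 10 PC3 arrays or on the compared lines, the mean of probe sets, an intensity trend, and each array left out.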

Additional observations from a re-analysis of the deposited data

Results flagged for a closer look

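The difference between Clone 1 and PC3-N(PDGFRα) is also the difference between their changes from PC3-N, and 12 genes were called in opposite directions in those changes, which share the PC3-N arrays. The values below are log2 differences, Clone 1 minus PC3-N(PDGFRα), with limma's adjusted p, followed by the change of Clone 1 and then of PC3-N(PDGFRα) from PC3-N. PDGFRA, which chose the pair, stood at −4.86 (−1.89 and 2.97) and is given without a test of this difference. Higher in Clone 1 were SHISA3 at 2.34 (adjusted p = 4.1e-04; 1.14 and −1.20) and CLDN1 at 1.93 (4.9e-04; 0.98 and −0.95). The phosphatase subunit PPP4C followed at 0.92 (1.8e-04; 0.50 and −0.42), the zinc finger homeobox gene ZFHX4 at 0.89 (6.5e-04; 0.40 and −0.49) and the scaffold gene DLG5 at 0.87 (1.5e-04; 0.43 and −0.44).

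Lower in Clone 1 were HAS2 at −2.29 (3.0e-04; −1.30 and 0.99), HOXB9 at −1.52 (1.2e-04; −0.56 and 0.95) and ZFPM2 at −1.48 (1.1e-04; −0.54 and 0.94). STARD3NL, an endosomal cholesterol-binding protein, stood at −0.90 (3.1e-04; −0.42 and 0.47), KGD4, a mitochondrial dehydrogenase component, at −0.71 (4.5e-04; −0.35 and 0.37) and PDRG1 at −0.70 (2.3e-04; −0.29 and 0.42). Because the 12 genes were chosen by opposite calls, the PC3-N mean lay between those of the pair in each. Opposite changes also add up to a difference between the pair. The adjusted p of that difference and its kept calls therefore add no support for these genes. STARD3NL lies in the stretch of chromosome 7 described above and CLDN1 at the end of a higher one on chromosome 3, while ZFHX4 is higher inside a stretch of chromosome 8 that is lower in Clone 1. The main differences of the 11 genes other than PDGFRA kept their calls in all 4 fits that left out an array of the pair, with adjusted p up to 0.0080. The opposite calls against PC3-N were less stable. Of the 12 genes, 7 and 6 kept them without replicates 1 and 2 of Clone 1, 4 and 3 without those of PC3-N(PDGFRα), and 2 and 5 without those of PC3-N. PDGFRA is counted among those kept in each of these fits, and its opposite sides followed from the choice of the pair. With each comparison fitted on its own 4 arrays, no other gene kept its opposite calls.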

How the results depend on the processing

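Of 145 named genes called between the lines, 72 kept their call under every alternative that held them and 73 lost it under at least 1. Calls were lost mostly when an array was left out: 62 and 41 for replicates 2 and 1 of Clone 1, and 55 and 54 for those of PC3-N(PDGFRα). Quantile normalization and fitting only the lines compared lost 17 each, the intensity trend 6, the 10 PC3 arrays 5, the replicate block 4, the filter 2 and the mean of probe sets 1. No named called gene changed sign. Labels number the passages alike. Deviations of same-numbered arrays correlated at −0.07 between the pair, at 0.22 between Clone 1 and PC3-ML and at 0.24 between PC3-N(PDGFRα) and PC3-N. With the other line's parent they correlated at −0.11 for Clone 1 and −0.16 for PC3-N(PDGFRα). Whether same-numbered arrays share more than a number was not tested, and the main fits did not pair them. The replicate block left 2094 genes called against 2139. Quantile normalization moved the median over all genes by 0.01. With arrays left out the counts ranged from 1063 to 1332 for the pair, 1325 to 1703 for Clone 1 against PC3-N, 71 to 404 for PC3-N(PDGFRα) against PC3-N, 1213 to 1981 for Clone 1 against PC3-ML, 12 to 170 for PC3-ML against PC3-N (64 in full) and 579 to 1205 for the departure difference. Genes higher in both ranged from 26 to 109 against PC3-N and from 13 to 72 against own parents. On the compared lines alone PC3-N(PDGFRα) against PC3-N gave 6 genes, PC3-ML against PC3-N 1, and genes higher in both 3 and 2. PC3-ML against PC3-N gave 42 with the replicate block and 106 with the filter. The cause of these changes was not tested, beyond fewer arrays leaving fewer degrees of freedom. Levels near the low end limit every fold change from them, and a single clone and a single overexpressing line cannot be told apart from their genotype.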

Other observations

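The main log2 difference correlated across 18372 genes at r = 0.18 with the difference between the PC3-ML passages (replicate 2 less replicate 1), at −0.08 with that of PC3-N and at −0.03 with that of Clone 3. These are descriptions over genes, which are not independent, and the PC3-ML arrays do not enter the difference.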
